A study of Mus musculus with 6 samples.

Results

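The genes described here are 41 mouse genes by which endothelial cells, the cells that line blood vessels, are recognised: junction and surface proteins, receptors, secreted proteins, transcription factors, capillary genes, arterial Notch genes and the adhesion molecules of activated endothelium. They were chosen by symbol, and all 41 matched 1 row each of the 47729 Ensembl gene IDs in the deposited table. Bulk RNA came from mouse left ventricular myocardium, taken 9 days after TAC (transverse aortic constriction), surgery in which a narrowed aorta makes the ventricle pump against raised pressure. The Treg group (3 libraries) had TAC and, as the series title describes it, regulatory T cells induced in culture with CD28 deprivation and given systemically. The control group (3 libraries) also had TAC, and the labels do not state what it received in place of the cells. Strain, sex and age are not stated in the labels, nor whether each library came from its own animal, so p-values reflect only how far these libraries spread.

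Endothelial cells hold together through junction proteins such as VE-cadherin, and their identity is set by ETS and SOX transcription factors. In heart muscle they form a dense capillary bed that passes water and fatty acids to the myocytes, while Notch signalling marks the arterial side of the network. Inflammatory cytokines acting through NF-kappaB make venules and capillaries display selectins and immunoglobulin-type adhesion molecules, which catch passing leukocytes.

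Library totals lay between 28937253 and 29979080 estimated counts. Levels are in CPM, the count scaled by the TMM-adjusted total of its library. The cardiomyocyte gene Myh6, alpha myosin heavy chain, was at 17157 to 24086 CPM in Treg libraries and 12476 to 23437 CPM in control libraries. One Treg library, replicate 3, also held the atrial myosin light chain Myl7 at 37.7 CPM, against at most 0.216 CPM in the others. Control replicate 3 stood apart from all other libraries, with correlations of log2 CPM of 0.936 to 0.957 against 0.967 to 0.991 among the other 5. Results that rest on it are given with and without it.

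None of the 41 endothelial genes passed the test between the Treg and control hearts. No other gene passed it either, so this does not show that the 41 were alike in the groups. By edgeR's quasi-likelihood test with Benjamini-Hochberg adjustment over 17365 genes, 0 of the 41 had an adjusted p under 0.05, where 0 of all genes (0%) did; the smallest adjusted p among the 41 was 0.175, for Aqp1. At an unadjusted p under 0.05 there were 8 of the 41 (19.5%), close to the 16.5% of all genes. The 5 higher in Treg were Aqp1, Aqp7, Esm1, Hey1 and Cavin2 (12.2% against 8.23% of all genes), and the 3 lower were Plvap, Ecscr and Selp (7.32% against 8.31%). All 3 Treg libraries lay to the same side of all 3 control libraries for 9 genes (22%), these 8 and Notch4, against 25.4% of all genes. DESeq2 called 1 of the 39 it gave an adjusted p, Aqp1, and 3.53% of all genes; limma-voom called 0 of the 41 and 0% of all genes. The count at an unadjusted p under 0.05 was 4 without Treg replicate 1 (7.95% of all genes), 7 without Treg replicate 2 (9.56%), 5 without Treg replicate 3 (10.4%), 13 without control replicate 1 (22.5%) and 10 without control replicate 2 (14.8%).

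The median log2 fold change of the 41 genes, Treg over control, was -0.06, beside -0.02 for all genes tested, and 19 of the 41 were above 0 (46.3%, against 48% of all genes). For 28 of the 41 the 95% interval of the log2 fold change lay within 1 unit of 0, and for 13 it reached further. Without control replicate 3 the median was 0.12. In bulk tissue, fewer endothelial cells and less RNA per cell cannot be told apart.

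**Figure D1:**
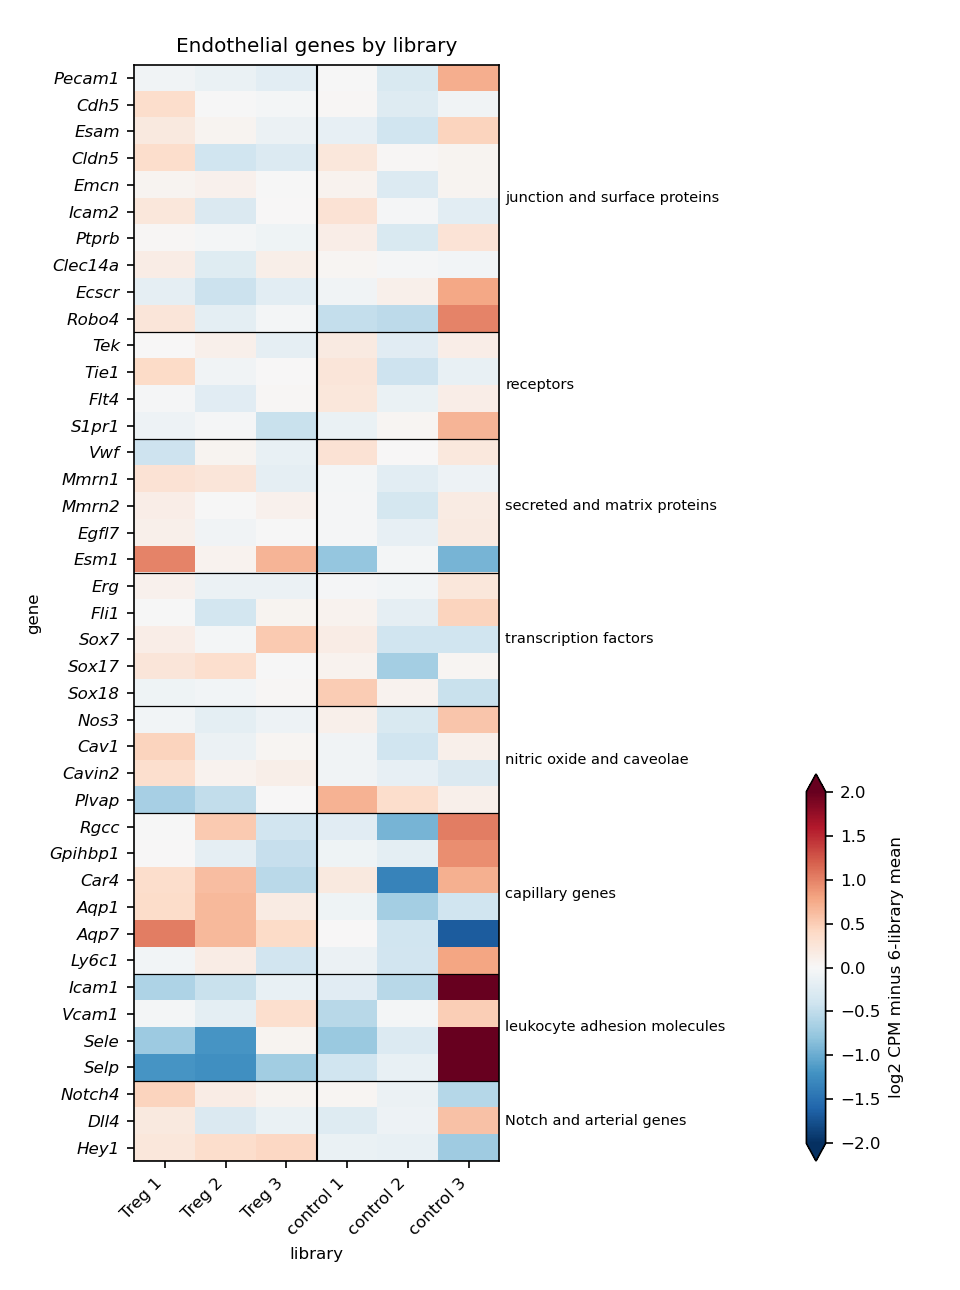
Level of each of the 41 endothelial genes in each library, as log2 CPM minus the mean over the 6 libraries (colour; 0.1 CPM was added before taking logs, and the scale ends at 2 in each direction), with genes grouped by role. The deepest reds are Icam1, Sele and Selp in control replicate 3, at 2.00, 2.85 and 3.63.

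**Figure D2:**
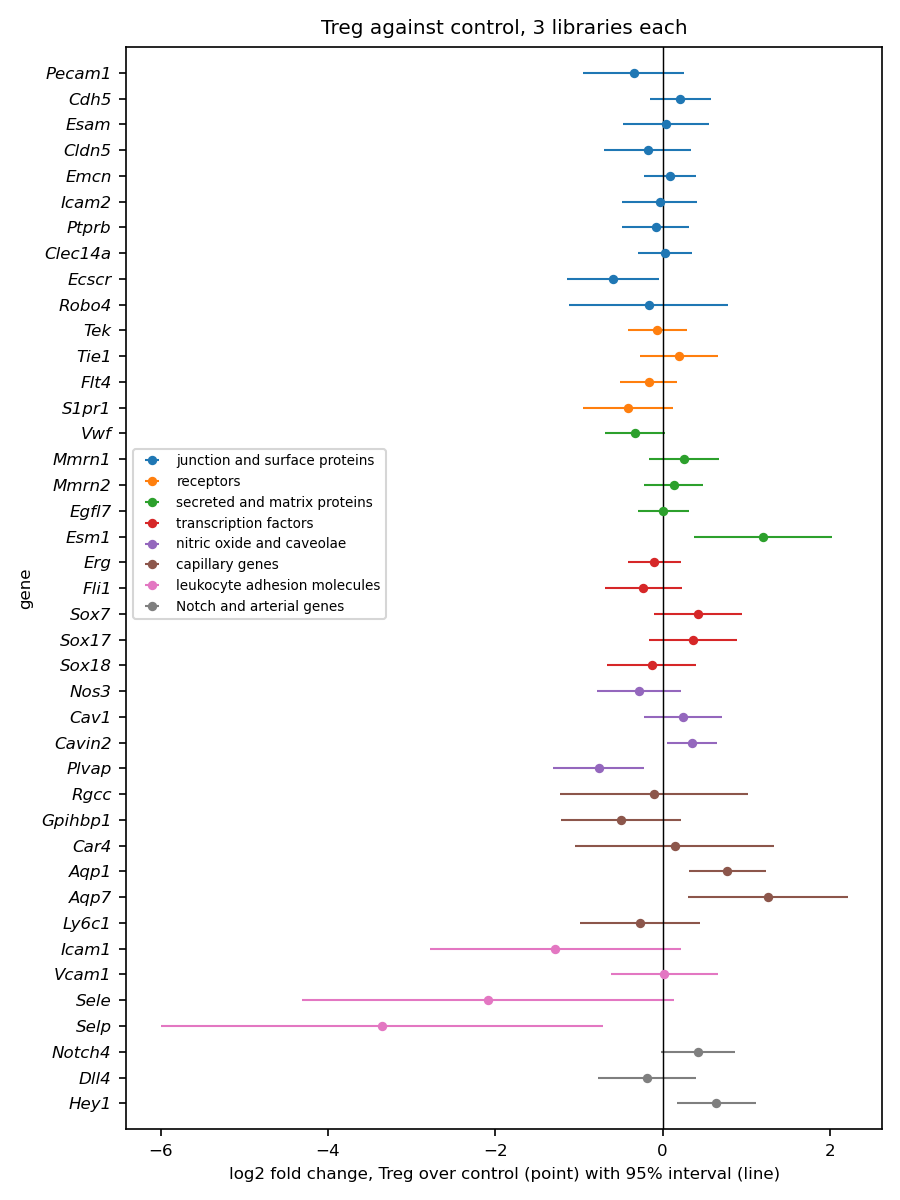
Log2 fold change, Treg over control, of each gene (point) with its 95% interval (line) from edgeR, 3 libraries per group, coloured by role. The widest intervals belong to Selp, Sele and Icam1, and Esm1 and Aqp7 lie farthest above 0.

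Per kilobase of exon and by the mean over all 6 libraries, the most abundant of these transcripts was Cav1, caveolin 1, the scaffold of caveolae, at 67.5 CPM per kb in Treg and 56.8 CPM per kb in control libraries (group means). Aqp1 followed, at 59.3 CPM per kb in Treg and 34.7 CPM per kb in control libraries. Next came Ly6c1, at 36.5 in Treg and 44.1 in control, Cdh5, at 34.5 in Treg and 29.8 in control, and Cavin2, at 32.8 in Treg and 25.8 CPM per kb in control libraries. The scarcest by that mean were Selp at 1.16, Esm1 at 1.26 and Mmrn1 at 1.33 CPM per kb. Without control replicate 3 the scarcest were Selp at 0.264 and Sele at 0.844 CPM per kb, followed by Mmrn1 at 1.35 and Esm1 at 1.397. Counts of Ly6c1 are uncertain, since it has a close paralog in Ly6c2 and its estimated counts were fractional in every library, as were those of Pecam1, Emcn and Ecscr.

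Among the 10 junction and surface proteins the groups overlapped for 9. Cdh5, VE-cadherin, the adhesion protein of endothelial junctions, had 171, 133 and 131 CPM in Treg libraries and 136, 112 and 127 CPM in control libraries. Its log2 fold change was 0.21 ± 0.16 (SE; edgeR adjusted p = 0.507), and 2 Treg values lay within the control range. Pecam1, the CD31 adhesion molecule of endothelial contacts, had 150, 143 and 137 CPM in Treg against 157, 128 and 263 CPM in control libraries. Only control replicate 3 stood apart there, and the log2 fold change was -0.35 with it and 0.01 without it. Robo4, an endothelial guidance receptor that stabilises vessels, showed the same library: 33.1, 24.5 and 27.4 CPM in Treg against 20.04, 19.5 and 55.9 CPM in control libraries. Its log2 fold change was -0.17 over all libraries and 0.52 without control replicate 3 (edgeR adjusted p = 0.852 and 0.114). The gene whose groups did not overlap was Ecscr, an endothelial regulator of chemotaxis and VEGF receptor signalling, at 12.8, 10.8 and 12.5 CPM in Treg against 13.8, 15.6 and 25.0 CPM in control libraries. The log2 fold change of Ecscr was -0.59 ± 0.24 (SE; edgeR adjusted p = 0.285), and -0.29 without control replicate 3. The others had log2 fold changes from -0.18 for Cldn5, the tight junction claudin, to 0.09 for Emcn, the sialomucin endomucin of capillaries and veins. Between them lay Ptprb, the phosphatase VE-PTP that acts on VE-cadherin and Tie2 (-0.08), Icam2, a constitutive leukocyte adhesion molecule (-0.04), Clec14a, an endothelial C-type lectin (0.03), and Esam, a junctional immunoglobulin-type adhesion molecule (0.04).

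The 4 receptors all overlapped between groups. Tek, the angiopoietin receptor Tie2, had 57.7, 61.9 and 50.7 CPM in Treg against 65.4, 49.1 and 63.2 CPM in control libraries (log2 fold change -0.06, 95% interval -0.41 to 0.29). Its partner Tie1 had 0.20 (-0.27 to 0.67), and Flt4, VEGF receptor 3 of lymphatic and sprouting endothelium, had -0.16 (-0.51 to 0.18). S1pr1, the sphingosine 1-phosphate receptor that maintains the vessel barrier, had 73.3, 78.0 and 57.8 CPM in Treg against 71.6, 81.1 and 126 CPM in control libraries. Its log2 fold change was -0.41 over all libraries (edgeR adjusted p = 0.403) and -0.13 without control replicate 3.

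Of the 5 secreted and matrix proteins, Esm1 alone separated the groups. Esm1, endocan, is a proteoglycan released by VEGF-stimulated tip cells at growing vessel fronts. It had 4.75, 2.45 and 3.83 CPM in Treg libraries (144, 68 and 122 counts), against 1.33, 2.28 and 1.18 CPM in control libraries (38, 69 and 35 counts). Treg replicate 2 exceeded control replicate 2 by less than the spread within either group. The log2 fold change was 1.20 ± 0.35 (SE; edgeR adjusted p = 0.213; DESeq2 adjusted p = 0.0553), and between 0.98 and 1.55 with any 1 library left out. Vwf, von Willebrand factor, which binds platelets to injured vessel walls, had 32.9, 45.7 and 39.4 CPM in Treg against 53.3, 44.0 and 50.6 CPM in control libraries. The groups overlapped at 1 Treg value, with a log2 fold change of -0.33 ± 0.15 (SE; edgeR adjusted p = 0.336). The multimerins Mmrn1 and Mmrn2, which are large extracellular glycoproteins of the vessel wall, had 0.25 and 0.13. Egfl7, a secreted regulator of vessel tube formation, was the nearest to 0 of the 41, at 0.01 (95% interval -0.30 to 0.31). Its exons overlap on the same strand with Mir126a and with the gene model Gm20532, so its counts may include theirs.

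The 5 transcription factors all overlapped. Erg and Fli1, the ETS factors of endothelial identity, had log2 fold changes of -0.10 (95% interval -0.42 to 0.22) and -0.23 (-0.69 to 0.23). Without control replicate 3 they had -0.006 and -0.05. The SOXF factors, which act in arterial and lymphatic specification, did not share a sign. Sox7 had 12.7, 11.2 and 16.7 CPM in Treg against 12.8, 8.74 and 8.74 CPM in control libraries (0.42 ± 0.22 SE), and Sox17 had 0.36 ± 0.23. Sox18 had 22.6, 23.3 and 24.5 CPM in Treg against 34.3, 25.3 and 17.7 CPM in control libraries. Treg values of Sox18 lay within the control range throughout (log2 fold change -0.13 ± 0.23 SE).

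Among the 4 genes of nitric oxide synthesis and caveolae, 1 gene was lower and 1 higher in all Treg libraries, as were 11.7% and 13.7% of all genes. Plvap, the protein that forms the diaphragms of fenestrae and caveolae and is scarce in normal heart capillaries, had 9.04, 10.2 and 14.5 CPM in Treg against 23.5, 18.3 and 15.5 CPM in control libraries. The lowest control value was that of replicate 3, just above the highest Treg value. Plvap averaged 11.3 ± 2.91 CPM in Treg and 19.1 ± 4.04 CPM in control libraries (SD, n = 3 each), a log2 fold change of -0.77 ± 0.23 (SE; edgeR adjusted p = 0.219). The difference was -0.89 without control replicate 3 (edgeR adjusted p = 0.0971) and -1.13 without the third replicate of both groups. In that last comparison, of 2 libraries against 2, Plvap was the 1 gene of the 41 to pass (edgeR adjusted p = 0.0471), where 0.684% of all genes did. The 2 libraries left out held the highest Treg and the lowest control value of Plvap, so leaving them out had to widen the difference. With any 1 library left out the log2 fold change of Plvap lay between -0.99 and -0.58; the smallest were -0.58 without control replicate 1 and -0.63 without Treg replicate 1 (edgeR adjusted p = 0.217 and 0.609). Cavin2, which shapes caveolae together with caveolin 1, had 112, 93.4 and 95.7 CPM in Treg against 84.5, 78.9 and 72.8 CPM in control libraries. Its log2 fold change was 0.35 ± 0.13 (SE; edgeR adjusted p = 0.266). Cav1 itself had 0.25 ± 0.20 with overlapping groups, and with 1 library left out between 0.07 (without Treg replicate 1) and 0.36, with 0.12 without control replicate 2. Nos3, endothelial nitric oxide synthase, had a log2 fold change of -0.28 ± 0.22 over all libraries and -0.03 without control replicate 3.

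The capillary genes split, with both aquaporins higher in every Treg library, as were 13.7% of all genes, and the remaining 4 overlapping. Aqp1, the water channel of continuous capillaries and of red blood cells, had 151, 184 and 133 CPM in Treg against 111, 73.2 and 89.1 CPM in control libraries. It averaged 156 ± 26.0 CPM in Treg and 91.1 ± 19.0 CPM in control libraries (SD, n = 3 each). The log2 fold change was 0.77 ± 0.20 (SE), with an adjusted p of 0.175 by edgeR and 0.0242 by DESeq2. It kept its sign with any 1 library left out, between 0.64 and 0.95. Aqp7, a glycerol channel known from adipocytes and found in heart capillaries, had 10.3, 7.90 and 6.55 CPM in Treg against 5.05, 3.77 and 1.51 CPM in control libraries. Control replicate 3 was the lowest, and the log2 fold change was 1.26 ± 0.41 (SE; edgeR adjusted p = 0.235) with it and 0.90 without it (edgeR adjusted p = 0.101).

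Markers of the other cells that carry these channels were read beside them. The 5 erythroid genes together had 1918, 1857 and 1073 CPM in Treg against 2849, 1277 and 292 CPM in control libraries. The groups overlapped, and for both this sum and Aqp1 control replicate 1 was the highest control and Treg replicate 3 the lowest Treg library. The other ranks differed. The lowest control was replicate 3 for the sum and replicate 2 for Aqp1. The highest Treg library was replicate 1 for the sum and replicate 2 for Aqp1. Summed over 5 adipocyte markers the level was 0.165, 0.144 and 1.19 CPM in Treg against 0.105, 0.0331 and 0.168 CPM in control libraries. Among them Adipoq, adiponectin, had 0.0659, 0.0361 and 0.188 CPM in Treg and 0 in all 3 control libraries, and Lep, leptin, was at 0 in 5 of 6 libraries. The part of either cell type in the Aqp1 and Aqp7 values was not tested.

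The 4 other capillary genes were not separated by group. Gpihbp1, which carries lipoprotein lipase to the capillary lumen, had 50.6, 44.3 and 36.2 CPM in Treg against 47.1, 43.5 and 95.04 CPM in control libraries. Here too control replicate 3 alone was high, and the log2 fold change was -0.50 with it and -0.05 without it. Ly6c1, a surface antigen of capillary endothelium and of some leukocytes, had -0.27 and 0.16 in the same pair of comparisons. Rgcc, a cell cycle regulator enriched in heart capillaries, had 12.3, 17.9 and 9.51 CPM in Treg against 10.6, 6.503 and 25.4 CPM in control libraries (log2 fold change -0.10, and 0.63 without control replicate 3). Car4, the membrane-bound carbonic anhydrase of capillaries, had 8.57, 10.3 and 4.58 CPM in Treg against 7.65, 2.58 and 11.0 CPM in control libraries, the highest and lowest values both being controls.

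Of the 3 Notch and arterial genes, Hey1 and Notch4 were higher in every Treg library, as were 13.7% of all genes, and Dll4 overlapped. Hey1, a transcriptional repressor induced by Notch, had 7.49, 8.19 and 8.54 CPM in Treg against 5.86, 5.79 and 3.87 CPM in control libraries. The log2 fold change of Hey1 was 0.64 ± 0.20 (SE; edgeR adjusted p = 0.229), and 0.47 without control replicate 3. Notch4, the endothelial Notch receptor, had 65.3, 52.7 and 49.6 CPM in Treg against 49.2, 43.8 and 32.1 CPM in control libraries, where the lowest Treg value lay just above the highest control value. Its log2 fold change was 0.42 ± 0.19 (SE; edgeR adjusted p = 0.317), and 0.26 without control replicate 3. Dll4, the Notch ligand of arteries and tip cells, had 17.2, 12.3 and 13.7 CPM in Treg against 12.6, 13.9 and 22.6 CPM in control libraries (log2 fold change -0.19, and 0.12 without control replicate 3). Among 16 other Notch and arterial genes, edgeR called 0, and 1 had an unadjusted p under 0.05, where 16.5% of all genes did. That gene was Hes1, a Notch-induced repressor, lower in Treg at 12.2, 10.3 and 16.0 CPM against 18.0, 18.2 and 16.8 CPM in control libraries (-0.46 ± 0.18 SE). The signs of the Notch-induced repressors Hey1 and Hes1 were opposite, and Hey2, Heyl and Nrarp of the same list had -0.04, 0.05 and 0.11.

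**Figure D3:**
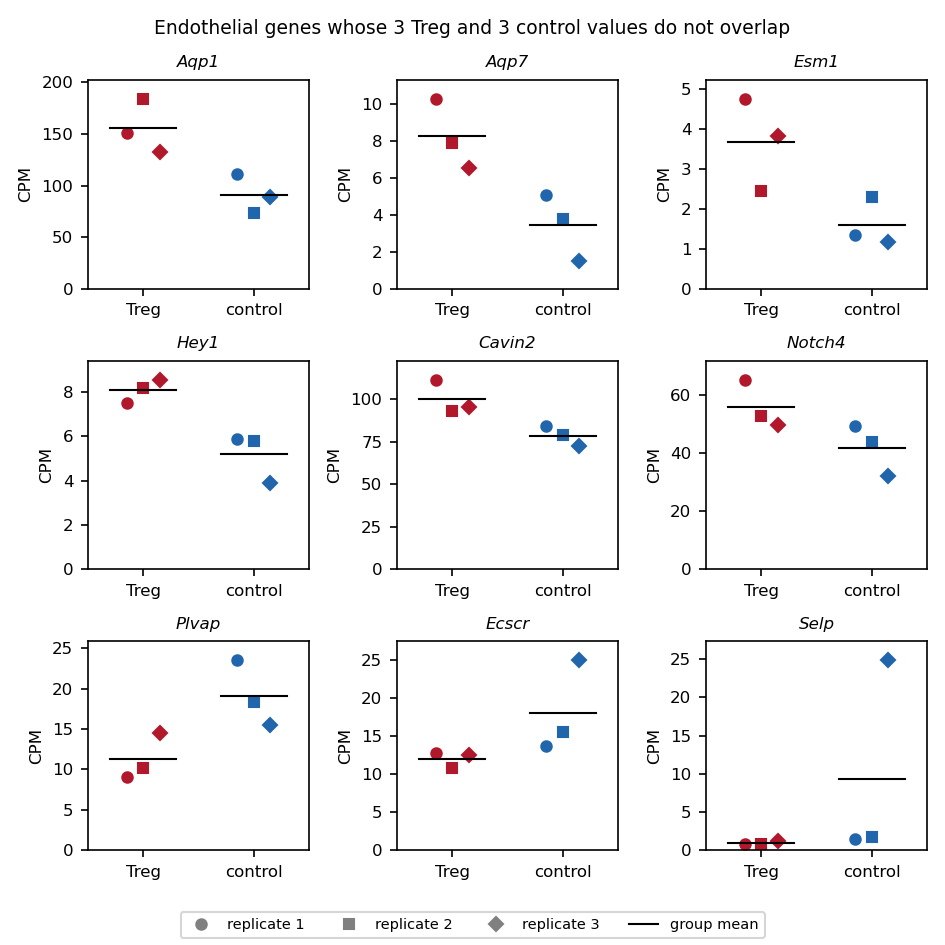
CPM per library (linear axis from 0) of the 9 genes whose Treg and control values did not overlap; symbols give the replicate number and bars the group mean. The distance between the groups is small against their spread for Notch4, Plvap and Esm1, and the control mean of Selp is raised by control replicate 3 at 24.8 CPM.

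The leukocyte adhesion molecules Sele, Selp and Icam1 had the largest fold changes of the 41 by edgeR with all libraries. The size of these changes rested on 1 library. Sele, E-selectin, which slows leukocytes on activated endothelium, had 2.11, 1.51 and 3.67 CPM in Treg libraries (64, 42 and 117 counts), against 2.07, 2.91 and 26.2 CPM in control libraries (59, 88 and 778 counts). Selp, P-selectin, which endothelium and platelets store in granules, had 0.791, 0.757 and 1.15 CPM in Treg (24, 21 and 36.5 estimated counts) against 1.42, 1.72 and 24.8 CPM in control libraries (40.5, 52 and 738 estimated counts). Icam1, the ligand of leukocyte beta 2 integrins, had 10.1, 11.4 and 13.9 CPM in Treg against 13.2, 10.5 and 62.3 CPM in control libraries. For all 3 the excess was in control replicate 3, at 7.13, 14.4 and 4.48 times the next highest library. The other controls lay inside the Treg range for Icam1 and Sele, and just above it for Selp.

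The log2 fold changes, with all libraries and then without control replicate 3, were -2.09 and -0.03 for Sele, -3.36 and -0.80 for Selp, and -1.28 and 0.00 for Icam1. By edgeR the adjusted p was 0.324, 0.245 and 0.358 with all libraries for these genes in that order, and 0.981, 0.186 and 0.994 without control replicate 3. DESeq2 gave Sele and Selp no p. By limma-voom the log2 fold changes were -1.24 for Sele, -2.14 for Selp and -0.81 for Icam1, with those of Aqp7 (1.396) and Esm1 (1.21) next to that of Sele in size. Vcam1, the ligand of the integrin VLA-4, did not follow them, with 26.7, 24.0 and 34.9 CPM in Treg against 18.7, 26.8 and 38.9 CPM in control libraries. Its highest value was in control replicate 3 too, but only 1.11 times the next, and the log2 fold change was 0.02 (95% interval -0.62 to 0.66). Icam1, Selp and Vcam1 share exon bases with genes on the opposite strand, as do Nos3, Sox17, Dll4, Ecscr and Egfl7. The largest overlap was 1040 bases, of Nos3 with Gm15587. The sources used here do not say whether strand was used in counting.

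The starts of the 3 genes that stood out in control replicate 3 are shown because NF-kappaB, the cytokine-activated factor that binds such promoters, is the textbook inducer of this class. Each line is 300 bases of the plus strand from RefSeq (GRCm38.p6), from 250 before the transcription start to 50 after it: Sele at chr1:164047984-164048283, Selp at chr1:164115014-164115313 and Icam1 at chr9:21015690-21015989. Capitals mark matches to the NF-kappaB consensus forms GGGNNNNNCC and GGNNNTTCC, searched on both strands.
Sele: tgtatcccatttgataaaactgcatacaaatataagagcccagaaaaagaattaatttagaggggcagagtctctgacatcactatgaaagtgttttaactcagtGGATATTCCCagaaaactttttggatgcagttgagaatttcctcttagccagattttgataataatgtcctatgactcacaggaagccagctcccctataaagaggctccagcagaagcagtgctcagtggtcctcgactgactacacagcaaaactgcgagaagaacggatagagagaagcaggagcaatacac
Selp: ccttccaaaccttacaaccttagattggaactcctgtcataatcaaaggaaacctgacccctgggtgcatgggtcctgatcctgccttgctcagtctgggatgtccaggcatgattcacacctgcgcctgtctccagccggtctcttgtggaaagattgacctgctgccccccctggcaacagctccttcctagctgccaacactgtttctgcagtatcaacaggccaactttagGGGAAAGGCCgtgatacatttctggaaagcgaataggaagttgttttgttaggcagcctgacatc
Icam1: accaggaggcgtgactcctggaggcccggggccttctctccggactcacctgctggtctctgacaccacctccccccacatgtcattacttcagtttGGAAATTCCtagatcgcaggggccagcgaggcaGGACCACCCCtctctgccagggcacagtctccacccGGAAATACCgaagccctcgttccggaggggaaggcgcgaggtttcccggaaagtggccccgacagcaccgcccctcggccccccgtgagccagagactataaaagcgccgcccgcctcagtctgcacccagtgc

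In the Sele window the 2 forms overlap, at bases 106 to 115 counted from the first base of the window, and in the Selp window they overlap at bases 236 to 245. The Icam1 window holds the shorter form at bases 98 to 106 and 167 to 175 and the longer form at bases 131 to 140. The TATA box letters, TATAAA, begin at base 202 in Sele and at base 264 in Icam1. In Icam1 they thus lie after the transcription start used for the window. These letters are common. RefSeq windows were matched for 23 of the 41 genes (30 windows), and GGGNNNNNCC was in 63.3% of those windows and in 50.8% of all 32851 windows of the same length. The shorter form, chosen after the windows were seen, was in 30% and 18.5%, TATAAA in 20% and 13.6%, and the ETS core GGAAGT in 26.7% and 23.8%. A match is a string of letters and shows no binding in these hearts.

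**Figure D4:**
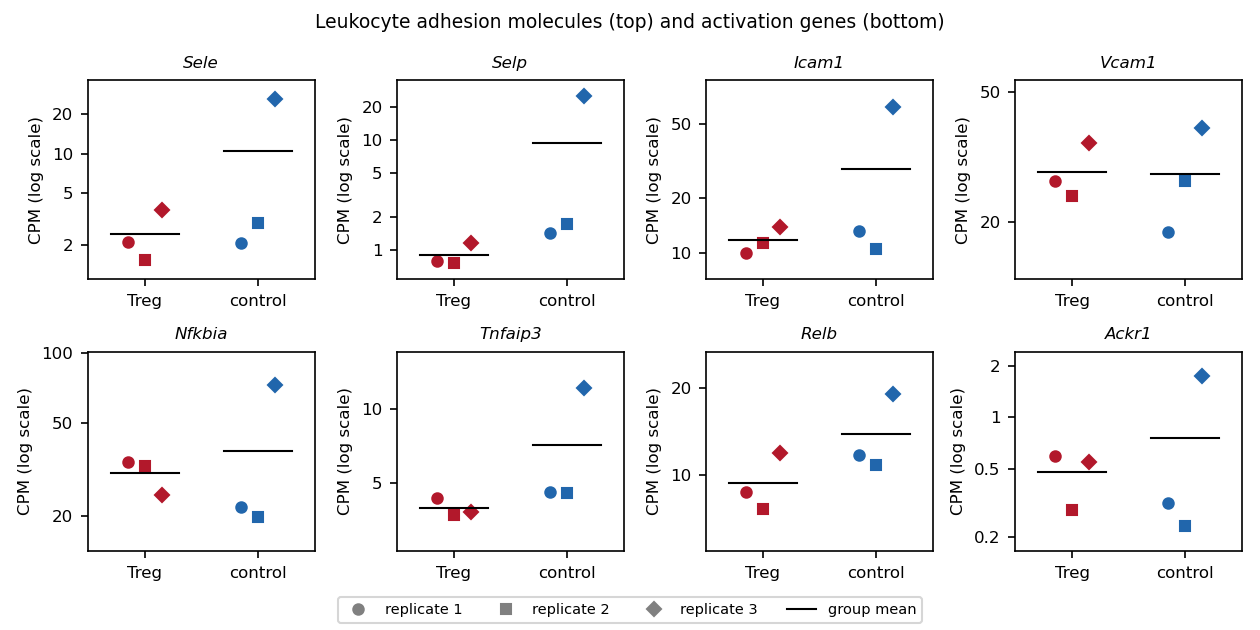
CPM per library (log axis) of 4 leukocyte adhesion molecules (top) and of 4 genes of the list of NF-kappaB targets and activation genes (bottom); symbols give the replicate number and bars the group mean. Control replicate 3 is the highest library in all 8 panels, by the least in Vcam1.

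Of the 10 genes of the NF-kappaB and activation list, 6 had their highest value in control replicate 3, beside 33.3% of all genes. These were Nfkbia, Tnfaip3, Ackr1, Lrg1, Relb and Birc3, and the 3 that exceeded the next library the most are given here. Nfkbia, the inhibitor that NF-kappaB induces against itself, had 33.9, 32.7 and 24.5 CPM in Treg against 21.7, 19.7 and 72.7 CPM in control libraries. Tnfaip3, the feedback inhibitor A20, had 4.35, 3.71 and 3.83 CPM in Treg against 4.60, 4.57 and 12.2 CPM in control libraries. Ackr1, the chemokine-binding receptor of venules, had 0.594, 0.288 and 0.550 CPM in Treg against 0.316, 0.232 and 1.73 CPM in control libraries. Of the other 4, Traf1 had its lowest and Nfkb2 its second-lowest value there, and Nfkbie and Irf1 lay between. Of the 10 genes, 8 had a log2 fold change below 0 (median -0.28, beside -0.02 for all genes), all with control replicate 3 included. By edgeR 0 were called and 0 had an unadjusted p under 0.05, where 16.5% of all genes did.

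Several markers of other cells moved with the same library. Pf4, platelet factor 4, had 6.46, 5.59 and 6.91 CPM in Treg against 5.404, 8.12 and 33.1 CPM in control libraries. The 5 platelet and megakaryocyte markers together had 13.7, 10.1 and 12.2 CPM in Treg against 11.7, 12.95 and 41.7 CPM in control libraries. Control replicate 3 was the highest for 2 of these 5, Pf4 and the integrin chain Itga2b (2.67, 2.24 and 2.36 CPM in Treg against 2.98, 2.05 and 5.25 CPM in control libraries), and not for Ppbp, Gp9 or Gp1bb. Neutrophil markers summed to 17.4, 14.7 and 7.43 CPM in Treg against 6.53, 8.18 and 32.5 CPM in control libraries, with Ly6g, which defines mouse neutrophils, at 0 in all 3 controls. Summed T cell markers were 1.14, 1.24 and 1.32 CPM in Treg against 3.21, 1.54 and 15.8 CPM in control libraries. In control replicate 3 nearly all of it was Cd3e, and Trac and Cd3g were at 0. Cd3e alone had 0.396, 0.577 and 0.471 CPM in Treg against 2.86, 1.19 and 15.7 CPM in control libraries. Lyve1, the hyaluronan receptor of lymphatic vessels and resident macrophages, had 6.89, 15.3 and 9.83 CPM in Treg against 5.404, 11.9 and 41.9 CPM in control libraries. Their part in the adhesion molecule values was not tested.

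**Figure D5:**
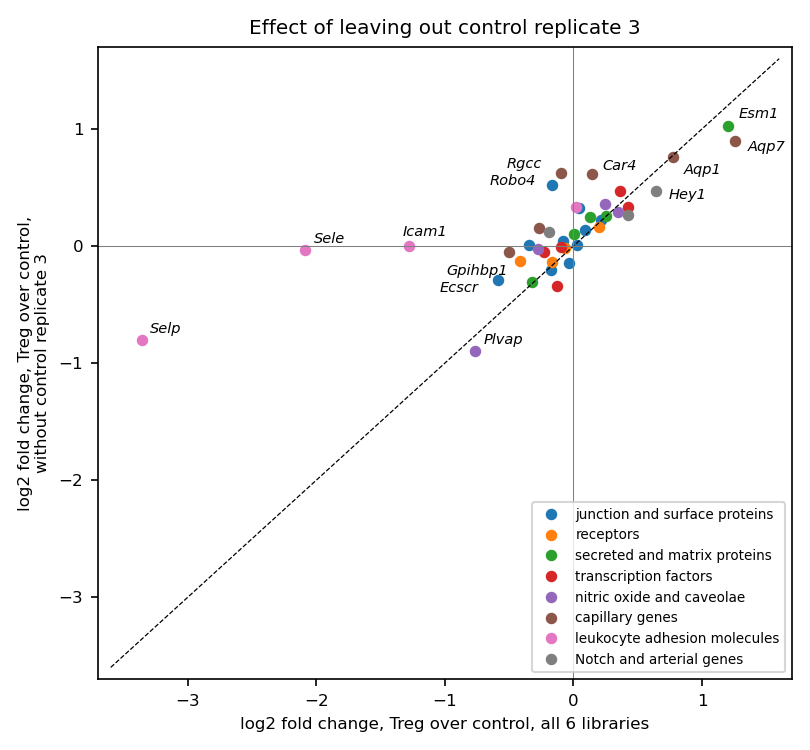
Log2 fold change, Treg over control, of each of the 41 genes with all 6 libraries (horizontal) and without control replicate 3 (vertical); the dashed line marks equality. Selp, Sele and Icam1 lie far from the line, Sele and Icam1 near 0 on the vertical axis, and Aqp1, Esm1 and Plvap lie near it.

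Control replicate 3 was the highest of the 6 libraries for 20 of the 41 genes (48.8%), against 33.3% of all genes, and the lowest for 7 (17.1%), against 31.9%. It lay over 2-fold above every other library for 3 genes (7.32%), Icam1, Sele and Selp, against 2.43% of all genes. The summed level of the 4 adhesion molecules was 39.7, 37.6 and 53.7 CPM in Treg against 35.4, 41.9 and 152 CPM in control libraries. For the 10 junction and surface proteins the sum was 681, 593 and 590 CPM in Treg against 638, 522 and 814 CPM in control libraries, with control replicates 2 and 3 at the ends. For the 3 Notch and arterial genes the sum was 90.0, 73.2 and 71.8 CPM in Treg against 67.6, 63.5 and 58.6 CPM in control libraries, lowest in control replicate 3. Notch4 held most of that sum. Hey1 was lowest in that library too, while Dll4 was highest there, at 22.6 CPM. Of the 41 log2 fold changes, 6 changed sign when that library was left out; 0 of the 41 were then called by edgeR, against 1.3% of all genes, and 10 (24.4%) had an unadjusted p under 0.05, against 18.5%.

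The level of each gene was also divided by that of Cdh5 in the same library, a scaling chosen after the values were seen. On this scale 12 of the 41 genes did not overlap between groups (29.3%), against 20.4% of all genes; 2 were higher in Treg (4.88% against 4.18%) and 10 lower (24.4% against 16.3%). Of the 9 genes that did not overlap in CPM, 5 still did not: Aqp1 and Aqp7 were higher in Treg, and Plvap, Ecscr and Selp lower. Aqp1 stood at 0.884, 1.38 and 1.01 times Cdh5 in Treg against 0.814, 0.653 and 0.700 times in control libraries. Plvap stood at 0.0529, 0.0765 and 0.111 times Cdh5 in Treg against 0.172, 0.163 and 0.122 times in control libraries. Hey1, Notch4, Esm1 and Cavin2 overlapped on this scale. Cdh5 itself averaged 145 ± 22.6 CPM in Treg and 125 ± 12.2 CPM in control libraries (SD, n = 3 each), so the scaling lowers Treg ratios on average.

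Other endothelial lists were read from the same fit. Of 18 further endothelial genes, edgeR called 0, 1 had an unadjusted p under 0.05 and 9 were above 0, with a median log2 fold change of 0.00. That gene was Arap3, an endothelial GTPase-activating protein, at 60.9, 56.5 and 55.02 CPM in Treg against 46.8, 36.3 and 51.0 CPM in control libraries. Kdr, VEGF receptor 2, had 0.09. Flt1, VEGF receptor 1, had 0.26, at 128.3, 158.2 and 128.5 CPM in Treg against 125.1, 93.5 and 128.1 CPM in control libraries. Every Treg value of Flt1 lay above the controls, the lowest by very little. The same order held for 3 of the 18, Flt1 included, and for 13.7% of all genes. Of 7 partners in capillary lipid handling, edgeR called 0. Fabp5, a fatty acid binding protein, was lower in Treg (-0.46 ± 0.19 SE). Tcf15, which with Meox2 drives fatty acid uptake in heart capillaries, was higher in every Treg library (0.73 ± 0.32 SE; edgeR adjusted p = 0.309). Its values were 7.55, 4.51 and 5.825 CPM in Treg against 4.21, 4.40 and 2.15 CPM in control libraries. Cd36, the fatty acid translocase, had 1040, 1373 and 919 CPM in Treg against 1438, 1070 and 2523 CPM in control libraries, and Fabp4 had 490, 391 and 368 CPM in Treg against 458, 360 and 1005 CPM in control libraries. Control replicate 3 was the highest library for 3 of the 7 partners, Cd36, Fabp4 and Cd300lg, where it was for 33.3% of all genes. It was the lowest for 1, Tcf15, where it was for 31.9% of all genes.

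Of 5 flow-responsive genes, edgeR called 0 and 1 had an unadjusted p under 0.05, where 16.5% of all genes did. Klf2, the transcription factor induced by laminar flow, had 37.2, 41.1 and 40.5 CPM in Treg against 34.8, 25.4 and 28.1 CPM in control libraries (0.43 ± 0.15 SE; edgeR adjusted p = 0.247). Edn1, endothelin 1, and Procr, the protein C receptor, were lower in every Treg library, at -0.46 and -0.48, as were 11.7% of all genes. Of 8 venous and lymphatic genes, edgeR called 0 and 2 had an unadjusted p under 0.05, both higher in Treg, where 8.23% of all genes were. The log2 fold change was above 0 for 4 and below 0 for 4. Among the latter were Lyve1 at -0.89, Pdpn at -0.50 and Prox1 at -0.02. The Lyve1 value includes control replicate 3, which held 2.74 times the level of the next highest library. Ccl21a, a chemokine of lymphatic endothelium, had 10.7, 10.2 and 8.96 CPM in Treg against 5.601, 5.01 and 2.25 CPM in control libraries (1.22 ± 0.32 SE; edgeR adjusted p = 0.185). Its estimated counts were fractional in every library. Reln, a lymphatic glycoprotein, had 0.72 with overlapping groups. Aplnr, the apelin receptor of veins and sprouting endothelium, overlapped widely, at 42.6, 22.1 and 33.7 CPM in Treg against 38.9, 21.4 and 7.81 CPM in control libraries. Of 3 endocardial genes tested, edgeR called 0, and all had values above 0 (0.06 to 0.32).

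Of 8 genes for the leukocyte receptors that bind the adhesion molecules, edgeR called 0, and 4 were above 0. Itgb1, the shared beta 1 integrin chain that many heart cells make, was lower in every Treg library, at 511, 572 and 595 CPM against 831, 784 and 675 CPM in control libraries (-0.45 ± 0.15 SE; edgeR adjusted p = 0.249). Itgb2, the beta 2 chain that binds Icam1, had 9.43, 6.64 and 11.8 CPM in Treg against 6.001, 37.3 and 19.7 CPM in control libraries, highest in control replicate 2. Itgam, an alpha chain that pairs with Itgb2 to bind Icam1, had 9.64, 6.18 and 10.6 CPM in Treg against 3.86, 17.6 and 26.8 CPM in control libraries, highest in control replicate 3. Selplg, the P-selectin ligand, was at 2.46 CPM in control replicate 3, the lowest of the 6, where Selp was highest.

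Mural cells, the pericytes and smooth muscle cells that wrap vessels, were read beside the endothelial genes. Of 7 mural markers edgeR called 0. At an unadjusted p under 0.05, 3 were higher and 1 lower in Treg, where 8.23% and 8.31% of all genes were. Abcc9, a potassium channel subunit of pericytes that myocytes also make, had 284, 341 and 274 CPM in Treg against 182, 130 and 131 CPM in control libraries (1.02 ± 0.18 SE; edgeR adjusted p = 0.114). Myh11, smooth muscle myosin, had 0.68 ± 0.15, and Cspg4, the NG2 proteoglycan of pericytes, -0.48 ± 0.14. Summed mural markers were 997, 1089 and 878 CPM in Treg against 889, 714 and 680 CPM in control libraries, overlapping by 1 library of each group. Their part in the endothelial values was not tested.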

How the data were processed

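The authors deposited 1 table of estimated counts per Ensembl gene, not normalized; 46.5% to 50% of a library's nonzero values have a fraction, whose origin the sources used here do not give. Cuffdiff 2.2.1, featureCounts 2.0.6, HISAT2 2.1.0, Trimmomatic 0.39 and GRCm38 are named, without roles, per the submitters' processing notes; per the labels' protocols, libraries were stranded mRNA. A further 6 columns match no sample listed here and were not used. Symbols, coordinates and exon lengths came from GENCODE M21 (GRCm38); 505 IDs had no symbol, and every row names a gene.

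Estimated counts were rounded (totals moved by at most 0.0087%) and tested in edgeR 4.0.16 (R 4.3.3): filterByExpr, TMM, robust quasi-likelihood F test, two-sided, no covariate, Benjamini-Hochberg adjustment over 17365 genes at 0.05. All 41 genes passed the filter. SEs are the log2 fold change over the square root of F. Each of the 15 pairs of libraries differed by more than sampling noise (chi-square over degrees of freedom 17.7 to 136.5). Mitochondrially encoded genes held 20.8% to 24.1% of counts. The test was checked on simulated counts. The alternatives were DESeq2 1.42.0, limma-voom (limma 3.58.1), RLE scaling, no filter, a mean of at least 1 CPM, mitochondrial genes removed, the replicate number as a block, each library left out, and control replicate 3 and Treg replicate 3 left out together. All 41 genes are named, and of other lists up to 4 genes with the smallest p; further genes of those lists were chosen after their values were seen. The 41 genes and the lists were chosen with earlier results of these data known. Of the marker lists not described above, edgeR called 0 genes: cardiomyocyte, fibroblast, macrophage and mesothelial markers had median log2 fold changes of -0.19, 0.30, 0.24 and 0.02.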

Additional observations from a re-analysis of the deposited data

How the results depend on the processing

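Of the 41 log2 fold changes, 24 kept their sign under all 14 alternative settings and 17 changed it under at least 1; the largest of the 17 was 0.50 in size with all libraries. The size of the fold changes of Sele, Selp and Icam1 rests on control replicate 3. Without it the log2 fold change was -0.03 for Sele and -0.004 for Icam1, while Selp kept -0.80. The 3 libraries a group limit the precision of every value.

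By edgeR 0 genes were called with all libraries, against 626 by DESeq2, 38 with no filter on low counts, 119 without replicate 3 of both groups, and 0 to 230 with 1 library left out (230 without control replicate 3). Of the 41, 1 was called by DESeq2 (Aqp1), 1 without replicate 3 of both groups (Plvap), and 0 with any 1 library left out. With 1 library left out, the count at an unadjusted p under 0.05 lay between 4 and 13, and the median log2 fold change between -0.15 and 0.12; without replicate 3 of both groups the median was 0.14.

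With 1 library left out, the lowest and highest log2 fold changes were -0.54 and 0.01 for Pecam1, -0.12 and 0.32 for Esam, -0.016 and 0.155 for Emcn, -0.17 and 0.12 for Icam2, -0.237 and 0.044 for Ptprb, -0.043 and 0.141 for Clec14a, and -0.41 and 0.52 for Robo4. They were -0.182 and 0.025 for Tek, -0.071 and 0.105 for Egfl7, -0.34 and 0.14 for Sox18, -0.44 and 0.63 for Rgcc, -0.25 and 0.61 for Car4, -0.48 and 0.16 for Ly6c1, -0.19 and 0.33 for Vcam1, and -0.33 and 0.12 for Dll4. Without replicate 3 of both groups the sign changed for Pecam1 (0.034), Ptprb (0.058), Clec14a (-0.055), Robo4 (0.53), Tek (0.052), Erg (0.016), Rgcc (0.81), Gpihbp1 (0.057), Ly6c1 (0.28) and Dll4 (0.14). Limma-voom changed it for Robo4 (0.008) and Rgcc (0.078). The cause was not tested.

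With the replicate number as a block edgeR called 0 genes, the median was 0.01, and Robo4 (0.012) and Rgcc (0.086) changed sign. Same-numbered libraries deviated from their group means with correlations of -0.142, -0.236 and 0.042, beside -0.237 to 0.309 for the other pairs. With 3 libraries a group these cannot show whether the numbers pair the samples, and the labels state no pairing.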
